A study of Sus scrofa with 36 samples.

Results

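The comparison described here asked whether the thyroid gland of Large White (LW) pigs changed with heat by a different amount than the thyroid gland of Creole (CR) pigs. It took the change from 24 to 30 °C within LW and subtracted the change from 24 to 30 °C within CR, on the log2 scale, for each of the 46097 probes of the deposited table. It used 24 of the 36 arrays of the series, which were 6 CR pigs at 24 °C, 6 CR pigs at 30 °C, 6 LW pigs at 24 °C and 6 LW pigs at 30 °C. All were castrated males, 1 pig stood on each array, and RNA of the thyroid was measured on porcine Agilent arrays in 1 colour. The other 12 arrays held pigs of the F1 cross, 6 at each temperature. A positive difference below means that LW changed upwards relative to CR, and a negative difference means the reverse.

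The labels give the hot temperature as 30 °C, whereas the protocol of the same records gives 32 °C for 5 days, and the labelled value is used for the group names. Pigs at 24 °C were slaughtered before the exposure and pigs at 30 °C after it, so temperature cannot be told apart from the time of slaughter and the age that goes with it. Each breed was represented by a small number of litters, and pen, day of slaughter, sire and dam are not in the labels, so a breed cannot be told apart from its families and littermates were treated as independent pigs. In whole tissue, fewer cells of a type and less RNA per cell cannot be told apart.

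The thyroid is built of follicles whose epithelial cells take up iodide, couple it to thyroglobulin and release thyroid hormone under the control of thyrotropin. Thyroid hormone raises heat production, and animals kept in the heat generally lower its output. Creole pigs are a Caribbean population kept under tropical conditions, and Large White is a lean, fast-growing breed. The gland also holds blood vessels, connective tissue, calcitonin-producing C cells and immune cells, and a small share of its cells is in division.

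Between 72.8% and 80.3% of the spots of an array were well above background, 0 spots were saturated, and the correlation of log2 values between pairs of the 24 arrays lay between 0.983 and 0.995. The tissue label was checked on thyroglobulin (TG), whose probe lay between 18.43 and 18.95 on the log2 scale over the 24 arrays. Markers of neighbouring tissue were mostly low. The mean of 3 parathyroid markers lay between 6.55 and 8.01 and that of 5 thymic epithelium markers between 6.74 and 7.77, with the ranges of the 4 groups overlapping for both lists. On average over the 24 arrays, GATA3 (9.77) carried the parathyroid mean, with PTH at 5.69 and CASR at 5.86. CCL25 (8.66) stood above the other thymic epithelium markers, which lay between 6.10 and 6.91. The part of neighbouring tissue in the differences was not tested.

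No probe was called for the difference between the breeds. With limma, 0 of the 46097 probes (0%) had a Benjamini-Hochberg adjusted p under 0.05, and the smallest adjusted p was 1. At an unadjusted p under 0.05 there were 1447 probes (3.14%), and the smallest unadjusted p was 0.000128. The count of called probes was also 0 under each of the 12 other settings tried and after leaving out any of the 24 pigs. The median SE of the difference was 0.14 on the log2 scale, and the median half-width of its 95% interval, which is not adjusted, was 0.29. For a typical probe, a difference smaller than this did not reach an unadjusted p under 0.05. A call after adjustment over the 46097 probes needs a larger difference. Within CR, 173 probes (0.375%) were called for heat, 9 higher and 164 lower at 30 °C (0.0195% and 0.356%). Within LW, 0 probes (0%) were called, the smallest adjusted p was 0.116, and 1844 (4%) had an unadjusted p under 0.05. These counts alone do not show that the breeds differ, since the difference itself called none.

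Of the 11649 named genes, each represented by its brightest probe, 179 had a positive difference at an unadjusted p under 0.05 (1.54%) and 168 a negative one (1.44%), 2.98% in all. The values that follow describe genes and lists against these shares. All differences given for single genes have an adjusted p of 1.

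The list of mitosis and G2/M genes holds the kinases, cyclins, spindle and kinetochore proteins that carry a cell through division, and 45 of its 57 genes were measured. The median change was -0.54 within CR and -0.29 within LW, and the median difference was 0.31, against 0.00 over all genes. The difference was positive for 41 of the 45 genes. At an unadjusted p under 0.05, 15 of 45 were positive and 0 negative, and 0 were called. Within CR, 22 of the 45 fell at an adjusted p under 0.05, against 0.481% of all genes that fell there. The count of 15 was 6 without LW_24 replicate 3, 7 without CR_30 replicate 3 and 9 without CR_24 replicate 6.

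The mean log2 level of the mitosis and G2/M list lay between 8.42 and 8.85 in the CR pigs at 24 °C (median 8.63) and between 7.58 and 8.21 at 30 °C (median 8.04). In the LW pigs it lay between 7.92 and 8.69 at 24 °C (median 8.30) and between 7.85 and 8.07 at 30 °C (median 8.02). All CR pigs at 24 °C were above all pigs of either breed at 30 °C, whereas the LW pigs at 24 °C overlapped with both. At 24 °C the LW mean was below the CR mean for 35 of the 45 genes, with a median gap of -0.30, and at 30 °C it was below for 16, with a median gap of 0.05. The difference of the heat changes is the gap at 30 °C minus the gap at 24 °C, so these are the same data read the other way.

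**Figure D1:**
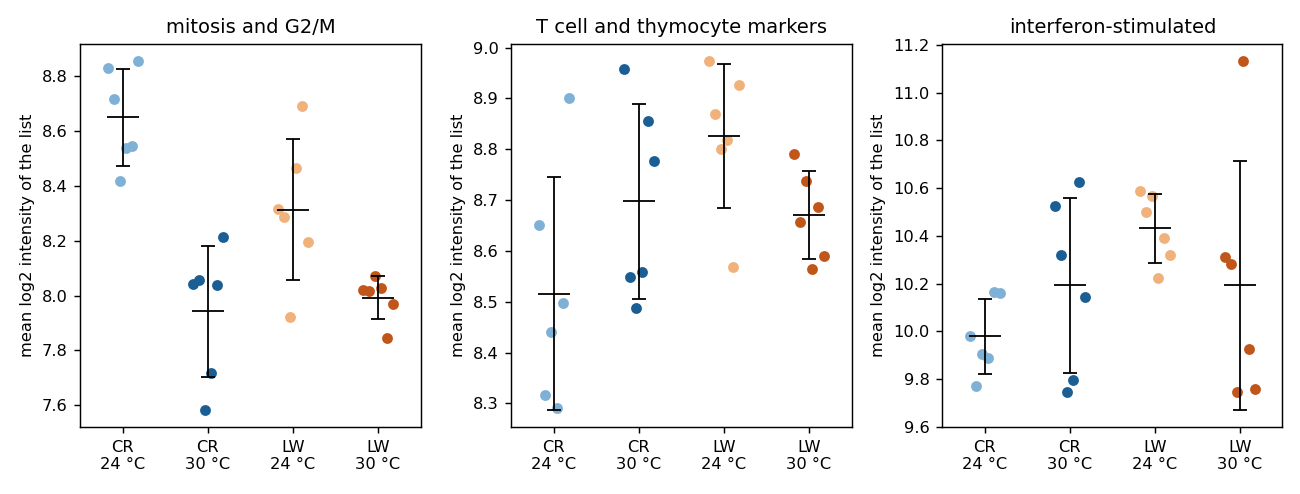
Mean log2 intensity per pig over the measured genes of the lists of mitosis and G2/M genes (45 genes), T cell and thymocyte markers (18) and interferon-stimulated genes (35), in the 4 groups of CR and LW pigs at 24 and 30 °C. Points are pigs, the horizontal bar is the mean and the whiskers are 1 SD (n = 6). The medians of the breeds lie apart at 24 °C, with CR higher for mitosis and LW higher for the other lists, and close together at 30 °C.

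The probes of 7 genes are shown because the differences described next were read from them, and because several genes were read by more than 1 probe. They are the 60-base sequences of the array as the scanner files give them, 5′ to 3′, in lower case, with no part set in capitals because the whole probe hybridizes.
CDK1: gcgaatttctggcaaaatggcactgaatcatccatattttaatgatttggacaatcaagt
TOP2A: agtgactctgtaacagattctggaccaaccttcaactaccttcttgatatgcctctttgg
CDC20: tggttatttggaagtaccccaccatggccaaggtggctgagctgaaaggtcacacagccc
BPI: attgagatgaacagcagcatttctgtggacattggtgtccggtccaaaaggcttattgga
CD2: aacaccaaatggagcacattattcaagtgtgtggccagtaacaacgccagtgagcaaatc
GLRX: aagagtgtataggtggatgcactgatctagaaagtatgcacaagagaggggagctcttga
SLCO3A1: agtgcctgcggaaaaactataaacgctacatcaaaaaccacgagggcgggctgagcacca

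The array carries 1473 pairs of probes that share an identical sequence, which shows how well a difference repeats on the same RNA. The size of the gap between the values of such a pair was 0.04 on the log2 scale at the median, and the sign of the difference was shared by 81.9% of the pairs.

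CDK1, the kinase that drives entry into mitosis, lies on chromosome 14 from 64233945 to 64255290 of Sscrofa11.1. Its log2 intensity lay between 9.34 and 10.14 (median 9.58) in CR at 24 °C, 6.90 and 8.44 (median 8.11) in CR at 30 °C, 7.59 and 9.60 (median 8.71) in LW at 24 °C, and 7.46 and 8.18 (median 7.87) in LW at 30 °C. In CR the groups did not overlap, in LW they did, and the lowest LW pig at 24 °C stood with the heated pigs. CDK1 fell by 1.80 within CR (limma adjusted p 0.00124), the change within LW was -0.87, and the difference was 0.92 (SE 0.40, 95% interval 0.11 to 1.74, unadjusted p 0.0276). The difference was positive for both probes of the gene and within each of the 4 slides that held all 4 groups. Without LW_24 replicate 3 it was 0.69, the smallest value over pigs left out.

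TOP2A, the topoisomerase that untangles replicated chromosomes, lies on chromosome 12 from 22001300 to 22028452. It lay between 9.52 and 10.76 (median 10.19) in CR at 24 °C, 7.06 and 9.37 (median 8.595) in CR at 30 °C, 8.28 and 10.06 (median 9.26) in LW at 24 °C, and 8.24 and 8.83 (median 8.38) in LW at 30 °C. The heated groups of the breeds shared their range, and CR at 24 °C stood highest. TOP2A fell by 1.79 within CR (limma adjusted p 0.00261), the change within LW was -0.86, and the difference was 0.93 (SE 0.45, unadjusted p 0.0453).

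CDC20, an activator of the complex that starts chromosome separation, lies on chromosome 6 from 167886266 to 167890587. It lay between 6.94 and 7.63 (median 7.36) in CR at 24 °C, 5.77 and 6.49 (median 6.20) in CR at 30 °C, 6.07 and 7.51 (median 6.57) in LW at 24 °C, and 5.99 and 6.63 (median 6.27) in LW at 30 °C. The CR groups did not overlap, and the LW groups did. CDC20 fell by 1.19 within CR (limma adjusted p 0.00199), the change within LW was -0.42, and the difference was 0.77 (SE 0.29, unadjusted p 0.0114), the smallest p of the mitosis list. The second CDC20 probe has the same sequence and gave 0.88, which is a technical repeat. CDCA3, which triggers the breakdown of a mitotic inhibitor, had the largest difference of the list, 1.00 (SE 0.39, unadjusted p 0.0137), with changes of -1.70 within CR and -0.70 within LW.

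The other mitotic genes with an unadjusted p under 0.05, named after their values were seen, also had a positive difference. The spindle motor proteins KIF23, KIF15 and KIF4A had differences of 0.92, 0.60 and 0.64, the spindle assembly factor TPX2 0.88, the centromere proteins CENPF and CENPA 0.94 and 0.44, and cyclin B1 (CCNB1) 0.74. PBK, a mitotic kinase, had a difference of 0.88 with all 4 of its probes sharing the sign. For other division genes the changes were close to each other. MKI67, the proliferation antigen, had a difference of -0.13 with changes of 0.13 within CR and -0.0042 within LW, and AURKA, a spindle pole kinase, had changes of -0.34 and -0.33.

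The DNA replication list covers licensing factors, polymerases and nucleotide supply, and 26 of its 42 genes were measured. Its median change was -0.18 within CR and -0.07 within LW, and the median difference was 0.12. At an unadjusted p under 0.05, 7 of the 26 were positive and 0 negative. UHRF1, which carries DNA methylation through replication, had a difference of 0.58 (SE 0.21, unadjusted p 0.00966) and fell by 0.98 within CR (limma adjusted p 0.00124). PCLAF, a partner of the sliding clamp PCNA, had a difference of 0.94 (SE 0.41, unadjusted p 0.0293), and all of its 3 probes shared the sign. RRM2, a subunit of ribonucleotide reductase, had a difference of 0.83, whereas PCNA itself had 0.07. The count of 7 depended on single pigs more than that of the mitosis list. It was 1 without LW_24 replicate 3 or CR_30 replicate 4, 2 without CR_24 replicate 2, LW_30 replicate 3 or LW_30 replicate 4, 3 without CR_30 replicate 3, and 4 without CR_24 replicates 1, 5 or 6, LW_30 replicate 1 or LW_24 replicate 4.

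CHEK1, a kinase that holds the cell cycle when replication stalls, was among the 8 genes with the smallest p for a positive difference. It lay between 7.99 and 8.53 (median 8.37) in CR at 24 °C, 7.45 and 8.06 (median 7.72) in CR at 30 °C, 7.60 and 8.12 (median 7.89) in LW at 24 °C, and 7.56 and 7.99 (median 7.93) in LW at 30 °C. The CR pigs at 24 °C stood above the other groups, with a small overlap. CHEK1 fell by 0.58 within CR (limma adjusted p 0.00753), the change within LW was -0.06, and the difference was 0.53 (SE 0.16, unadjusted p 0.00289).

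The probes called for heat in the F1 pigs were chosen by a change that no CR or LW pig enters, although the estimate of the spread was shared by all arrays. In F1, 174 probes (0.377%) were called, 127 (0.276%) lower and 47 (0.102%) higher at 30 °C. The 127 probes had a median change of -0.72 within CR and -0.32 within LW, and the median difference was 0.48. It was positive for 94.5% of them, against 51.2% of all probes. Of the 127 probes, 38 belonged to genes of the mitosis or replication lists, and the 89 outside those lists had a median difference of 0.31, positive for 82. For the 47 probes that were higher in F1, the median change was 0.16 within CR and 0.17 within LW, and the difference was positive for 55.3%. Probes of genes that vary together are not independent, and no test was run over them.

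**Figure D2:**
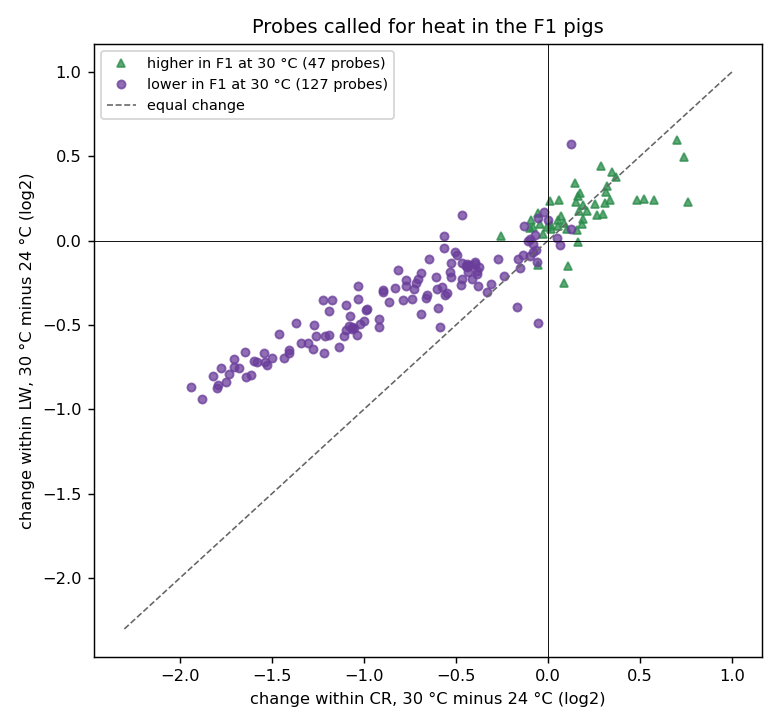
Heat change within CR (x axis) against heat change within LW (y axis), 30 °C minus 24 °C on the log2 scale, for the probes called in the F1 pigs, 127 lower (circles) and 47 higher (triangles). The dashed line marks equal change. Most of the probes that were lower in F1 lie above the line, with a larger fall in CR (median -0.72) than in LW (median -0.32), and the probes that were higher in F1 lie around it.

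BPI, a protein of neutrophil granules that kills gram-negative bacteria, had the largest difference among the genes with the 8 smallest p values in its direction. The gene lies on chromosome 17 from 41344878 to 41392103. Its log2 intensity lay between 7.91 and 10.47 (median 9.37) in CR at 24 °C, 4.98 and 8.26 (median 6.41) in CR at 30 °C, 5.70 and 8.36 (median 6.85) in LW at 24 °C, and 5.65 and 8.01 (median 6.82) in LW at 30 °C. The CR pigs at 24 °C stood high, and the other groups shared their range. BPI fell by 2.82 within CR (limma adjusted p 0.00499), the change within LW was -0.22, and the difference was 2.60 (SE 0.76, 95% interval 1.05 to 4.15, unadjusted p 0.00174). The second probe, of another sequence, gave 2.29. Leaving out single pigs gave values from 2.30 to 2.96, and the 4 slides gave values from 1.81 to 4.88.

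Most other neutrophil and myeloid markers had a negative difference, 19 of the 21 measured. Of the list, BPI was the single gene with an unadjusted p under 0.05, and the median difference of the list was -0.28. S100A8, S100A9 and S100A12, calcium-binding proteins of neutrophils and monocytes, had differences of -0.59, -0.41 and -0.42. The complement component genes of macrophages C1QA and C1QB had -0.61 and -0.44, and lysozyme (LYZ) had -0.92. The mean of the list lay between 9.21 and 9.66 in CR at 24 °C, 8.90 and 9.56 in CR at 30 °C, 9.16 and 9.85 in LW at 24 °C, and 8.99 and 9.36 in LW at 30 °C. All groups overlapped.

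Most genes of T lymphocytes had a negative difference, 14 of the 18 measured. Of 29 T cell and thymocyte markers, 18 were measured, and their median change was 0.10 within CR and -0.10 within LW, with a median difference of -0.18. At an unadjusted p under 0.05, 7 of the 18 were negative and 0 positive, and none was called for the difference, for CR or for LW. The 7 were the T cell receptor chains CD3D, CD3E and CD3G, the adhesion molecule CD2, the co-receptor CD8A and the cytotoxic granule genes NKG7 and GZMH, of which those beyond CD3D and CD2 were named after their values were seen. CD3E had a difference of -0.93, CD3G -0.68, CD8A -0.67, GZMH -0.82 and NKG7 -0.52. The defining genes of immature thymocytes RAG1, DNTT and PTCRA had differences of -0.03, -0.08 and -0.08. Their mean log2 levels were low, at 5.79, 5.52 and 5.56, and probes this dim can hide a change. The T cell kinase LCK had a difference of 0.02. The positive values were those of LCK, the granule protease GZMB (0.13), the receptor chain CD247 (0.11) and the surface receptor CD5 (0.04). The count of 7 was 3 without LW_24 replicate 1, 4 without CR_30 replicate 1, and 3 when array position was a fixed block.

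The mean of the T cell list lay between 8.29 and 8.90 (median 8.47) in CR at 24 °C, 8.49 and 8.96 (median 8.67) in CR at 30 °C, 8.57 and 8.97 (median 8.84) in LW at 24 °C, and 8.56 and 8.79 (median 8.67) in LW at 30 °C. The groups overlapped. The LW mean was above the CR mean at 24 °C for 13 of the 18 genes, with a median gap of 0.27, and at 30 °C for 6, with a median gap of -0.05.

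CD3D lies on chromosome 9 from 45640475 to 45644153. It lay between 7.19 and 8.14 (median 7.72) in CR at 24 °C, 7.75 and 8.73 (median 8.12) in CR at 30 °C, 7.98 and 8.77 (median 8.55) in LW at 24 °C, and 7.44 and 8.41 (median 8.01) in LW at 30 °C. All 6 CR pigs at 30 °C were above the mean of the CR pigs at 24 °C, and all 6 LW pigs at 30 °C were below the mean of the LW pigs at 24 °C. The difference was -0.99 (SE 0.27, 95% interval -1.53 to -0.45, unadjusted p 0.000737), the smallest p among the genes in the negative direction. The other probes of CD3D, which are dimmer, gave -0.42, -0.21 and -0.07, of which the -0.21 and -0.07 probes have the same sequence.

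CD2 lies on chromosome 4 from 103963802 to 103976971. It lay between 6.08 and 6.73 (median 6.26) in CR at 24 °C, 6.24 and 7.30 (median 6.61) in CR at 30 °C, 6.81 and 7.31 (median 6.97) in LW at 24 °C, and 6.41 and 6.89 (median 6.66) in LW at 30 °C. The CR and LW pigs at 24 °C did not overlap, and at 30 °C they did. The difference was -0.72 (SE 0.20, unadjusted p 0.00100), and its 3 probes, each of another sequence, gave -0.72, -0.55 and -0.46.

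Interferon-stimulated genes, which cells switch on when they sense interferon, had the most negative median of the lists. Of 39 genes 35 were measured, with a median change of 0.25 within CR and -0.19 within LW and a median difference of -0.43. At an unadjusted p under 0.05, 5 were negative and 0 positive. CXCL10 and CXCL9, chemokines that attract T cells, had differences of -1.02 (SE 0.39, unadjusted p 0.0126) and -1.20 (SE 0.57, unadjusted p 0.0428). The exonuclease ISG20 had -1.10 (SE 0.45, unadjusted p 0.0191), the transcription factor IRF1, named after its values were seen, had -0.33, and the antiviral proteins MX1 and ISG15 had -0.56 and -0.87. For CXCL10, CXCL9 and ISG20 the sign was the same on 3 of the 4 slides.

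The count of 5 interferon-stimulated genes was unstable. It was 0 with slide as a fixed block and 1 when array position was a fixed block. It was 17 without LW_30 replicate 4 and 9 without CR_30 replicate 3, and it was 3 or 2 without CR_24 replicates 1, 2 or 4, LW_24 replicates 1 or 2, CR_30 replicates 1 or 5, or LW_30 replicates 3 or 6. The mean of the list lay between 9.77 and 10.17 (median 9.94) in CR at 24 °C, 9.75 and 10.62 (median 10.23) in CR at 30 °C, 10.22 and 10.59 (median 10.44) in LW at 24 °C, and 9.75 and 11.13 (median 10.104) in LW at 30 °C. The breeds did not overlap at 24 °C and shared their range at 30 °C, where the spread over pigs was wider. The LW mean was above the CR mean at 24 °C for all 35 genes, with a median gap of 0.37, and at 30 °C for 16, with a median gap of -0.01.

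Chemokines, interleukins and their receptors had a median difference of -0.14 over 51 of 59 genes, with 6 negative and 0 positive at an unadjusted p under 0.05. CXCL11, a further T cell chemokine, had -0.90 with some arrays of each group not well above background, and without CR_30 replicate 5 it was -0.58. The B cell attractant CXCL13, the receptors CCR1 and CXCR6 and the cytokine IL10, named after their values were seen, had -0.88, -0.56, -0.70 and -0.47. The count of 6 was 10 without LW_30 replicate 3.

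Antigen-presenting molecules had small differences of mostly 1 sign. The difference was negative for 19 of the 20 measured genes of MHC class I and II, with a median of -0.21, and 0 had an unadjusted p under 0.05. Beta-2-microglobulin (B2M) had -0.34 and the peptide transporter TAP1 -0.38. Among complement and acute phase genes the median was -0.16 over 33 genes, and complement C2 and serum amyloid A (SAA3) had differences of -0.68 and -0.99. Of the 4 slides, 2 gave the same sign for C2 and 3 for SAA3. The SAA3 value was -0.56 without CR_30 replicate 5, which was at 9.86 while the other CR pigs at 30 °C lay at 8.10 or lower. IGLL1, an immunoglobulin light chain-like gene, had a difference of -1.17 and of -0.74 without the same pig.

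**Figure D3:**
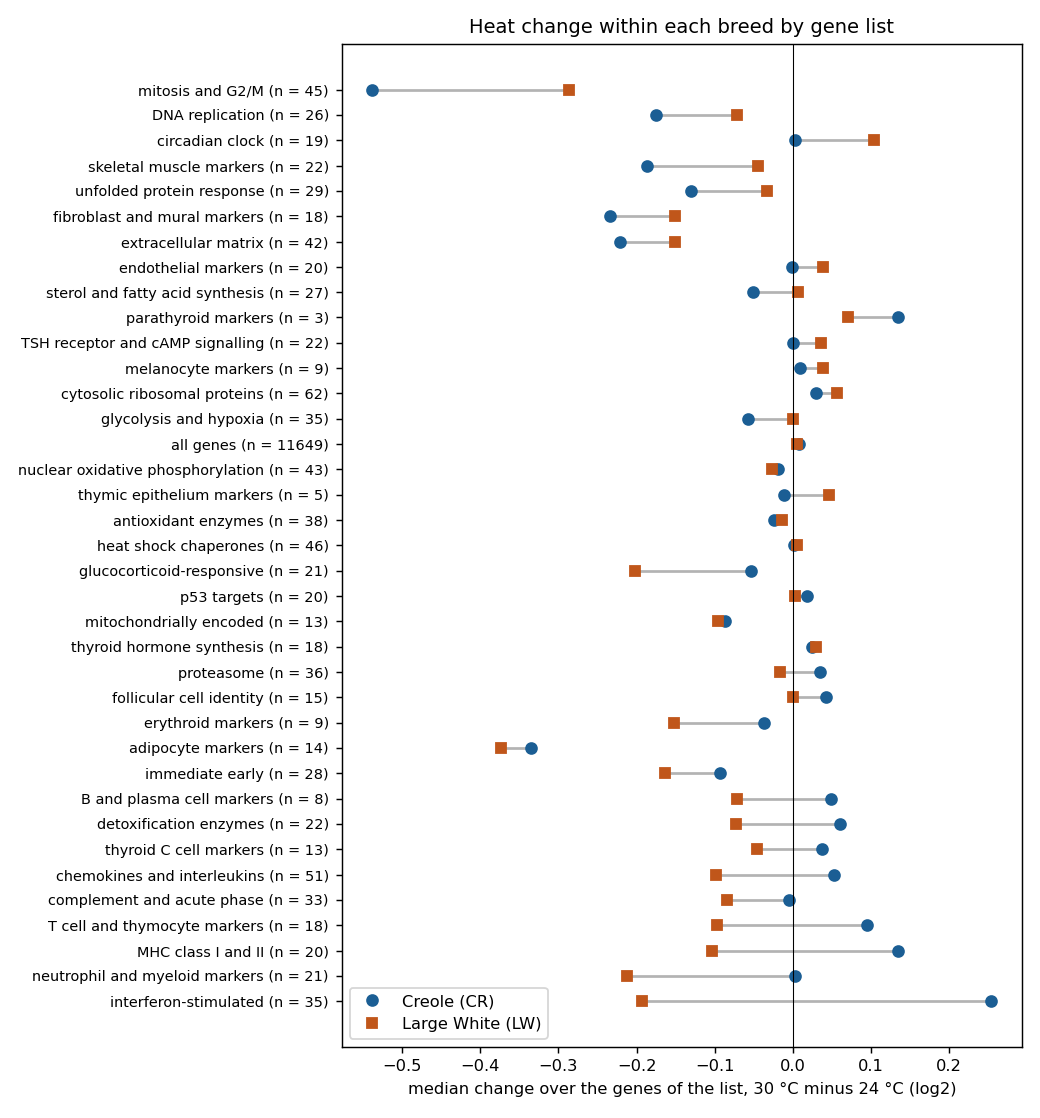
Median heat change over the measured genes of each list, 30 °C minus 24 °C on the log2 scale, within CR (circles) and within LW (squares), with the number of genes beside the name, ordered by the median difference. Mitosis and G2/M genes stand at one end (CR -0.54, LW -0.29) and interferon-stimulated genes at the other (CR 0.25, LW -0.19), while heat shock chaperones and thyroid hormone synthesis lie close to 0 in both breeds.

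Outside these lists, GLRX, which encodes glutaredoxin, an enzyme that reduces glutathione-linked proteins, had one of the most repeatable negative differences. The gene lies on chromosome 2 from 102425580 to 102437851. It lay between 8.93 and 9.25 (median 8.98) in CR at 24 °C, 8.99 and 10.04 (median 9.40) in CR at 30 °C, 9.59 and 10.19 (median 10.001) in LW at 24 °C, and 9.03 and 10.17 (median 9.35) in LW at 30 °C. The breeds did not overlap at 24 °C and overlapped at 30 °C. The difference was -0.90 (SE 0.26, unadjusted p 0.00123), and 5 of 5 probes, of 5 sequences, were negative, with values from -0.94 to -0.13. An unadjusted p under 0.05 was reached by 3 of these probes, and not by those at -0.21 and -0.13. The 4 slides gave values from -1.03 to -0.64.

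Further genes among the 8 smallest p values in the negative direction were the G protein subunit GNB3 with -0.83 (SE 0.24, unadjusted p 0.00153), the developmental factor HOXD10 with -0.52, the alpha-tubulin TUBA4A with -0.50 and EFHB with -0.53. EFHB was dim, with 3 or 4 of 6 arrays well above background in all groups but LW at 24 °C, where there were 6. GNB3 and CDCA3 lie close together on chromosome 5, from 63863656 to 63871352 and from 63858905 to 63861902, and their differences have opposite signs. MAPT, the microtubule protein tau, had the largest difference of the negative direction among genes with an unadjusted p under 0.05, -1.40 (SE 0.56). It lay between 6.87 and 9.53 (median 8.86) in LW at 30 °C, and the remaining 18 pigs lay between 8.58 and 10.13. The low values came from 2 LW pigs at 30 °C, at 6.87 and 7.13, and without either of them the difference was -1.10 or -1.15.

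In the positive direction, AKAP13, a scaffold that anchors protein kinase A, lay between 11.94 and 12.83 (median 12.44) in CR at 24 °C, 11.62 and 12.87 (median 12.16) in CR at 30 °C, 11.69 and 12.86 (median 12.09) in LW at 24 °C, and 12.83 and 13.02 (median 12.88) in LW at 30 °C. The heated LW pigs stood in a narrow band at the top of the range of the other groups. The difference was 0.94 (SE 0.29, unadjusted p 0.00281), but the other 5 probes of the gene gave values from -0.09 to 0.30. FIBIN, a secreted protein, had changes of -0.28 within CR and 0.90 within LW and a difference of 1.18 (SE 0.37, unadjusted p 0.00345). It lay between 11.42 and 12.33 (median 12.12) in LW at 30 °C, and in the other groups the medians lay between 11.02 and 11.27.

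The rest of the 8 genes were the ubiquitin ligase MID1, with 0.57, the endocytosis adaptor EPN1, with 0.43, the Mediator subunit MED8, with 0.35, and DDA1, a part of a ubiquitin ligase complex, with 0.33. DDA1 had the smallest p of the positive direction (0.00102) and was close to background, with 3, 2, 0 and 6 arrays well above it in CR at 24 °C, CR at 30 °C, LW at 24 °C and LW at 30 °C. Its level in LW at 24 °C was thus not well above background on any array.

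SLCO3A1, an organic anion transporter of the family that carries thyroid hormone across membranes, was chosen after its values were seen, because 2 of its probes had the smallest p of all probes with a gene name. The gene lies on chromosome 7 from 86777919 to 87103316. Its brightest probe lay between 10.63 and 11.32 (median 11.07) in CR at 24 °C, 10.11 and 11.19 (median 10.77) in CR at 30 °C, 10.74 and 11.45 (median 11.10) in LW at 24 °C, and 11.17 and 11.55 (median 11.43) in LW at 30 °C. The difference of that probe was 0.61 (SE 0.26, unadjusted p 0.0261). The other probes gave 0.71, 0.86 and 0.88, and the last 2 of these have the same sequence, so that the 4 probes stand for 3 sequences. All of the 4 slides gave a positive value.

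FUT2, BPI and LGALS4 had the largest positive differences among genes with an unadjusted p under 0.05, and the values of FUT2 fell into separate levels. FUT2, the fucosyltransferase that makes secreted H antigen, gave a difference of 3.29 (SE 1.24, 95% interval 0.77 to 5.81, unadjusted p 0.0120). Over the 24 pigs its log2 intensity lay either between 5.28 and 5.84 or between 8.85 and 10.72. Arrays well above background numbered 4 of 6 in CR at 30 °C and 6 of 6 in each other group. Pigs of the lower level at 24 °C were thus well above background, so that level was not at background on every array. The lower level was seen in 1 of 6 CR pigs at 24 °C, 4 of 6 CR pigs at 30 °C, 1 of 6 LW pigs at 24 °C and 0 of 6 LW pigs at 30 °C. The mean of a group thus follows the number of its pigs at each level. Leaving out single pigs gave differences from 2.71, without LW_24 replicate 5, to 4.01, without CR_24 replicate 3.

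LGALS4, a galectin of epithelial surfaces, gave a difference of 2.16 (SE 0.87, unadjusted p 0.0183). The widest gap between its values, from 9.38 to 10.16, was narrower than that of BPI, from 8.94 to 9.79, so separate levels are not clear. Above the LGALS4 gap were 5 of 6 CR pigs at 24 °C, 2 of 6 CR pigs at 30 °C, 2 of 6 LW pigs at 24 °C and 4 of 6 LW pigs at 30 °C. QRFPR, a neuropeptide receptor, gave 1.34 (SE 0.56, unadjusted p 0.0229), with overlapping groups.

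**Figure D4:**
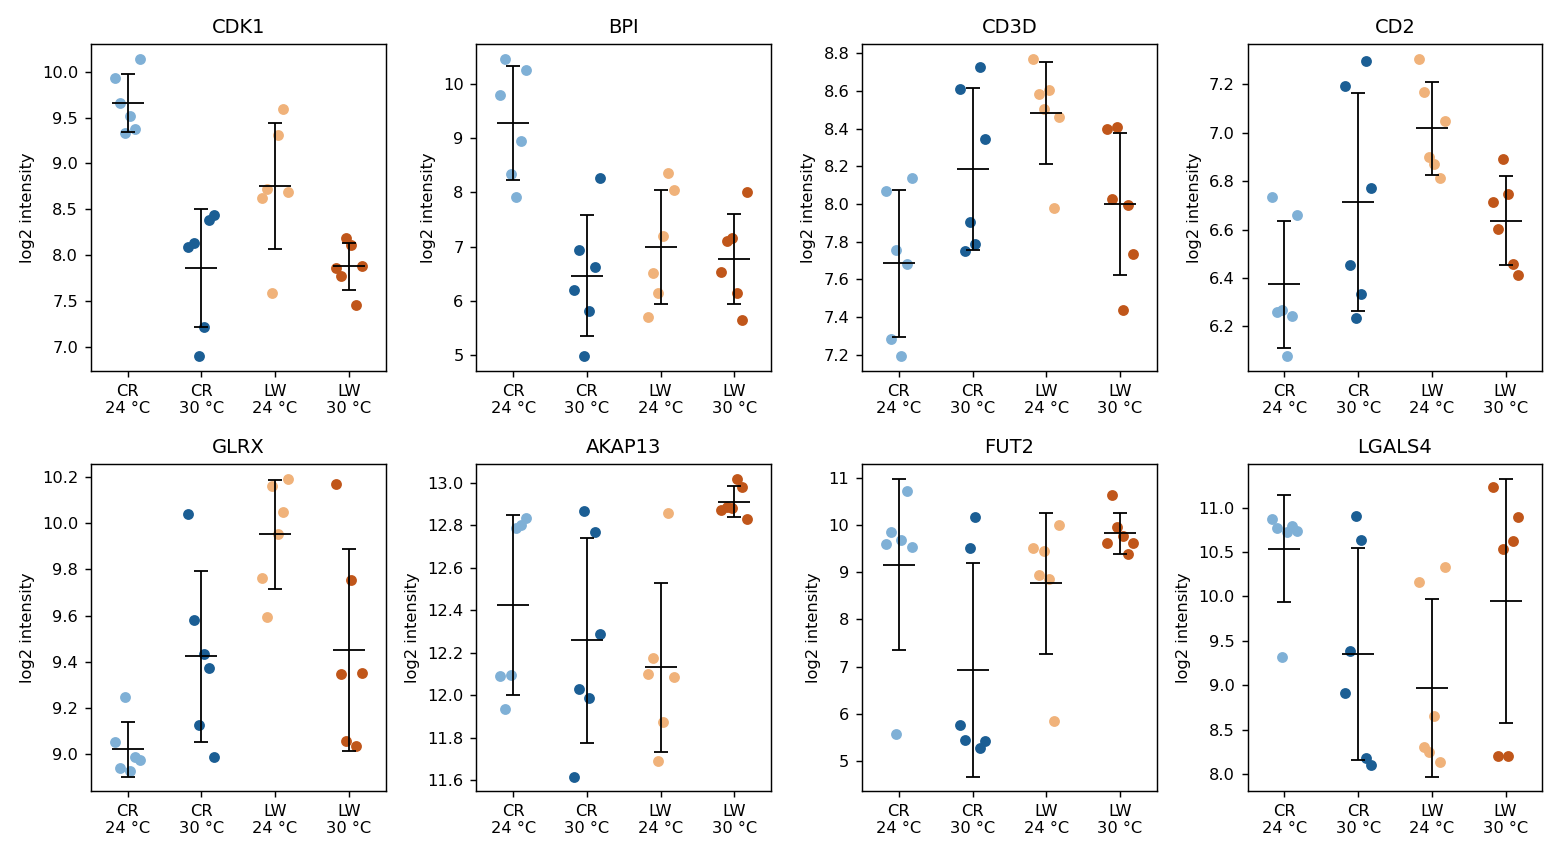
Log2 intensity per pig of CDK1, BPI, CD3D, CD2, GLRX, AKAP13, FUT2 and LGALS4 in CR and LW at 24 and 30 °C, with the mean and 1 SD (n = 6) as bar and whiskers; each panel has its own y axis. CDK1 and BPI are highest in CR at 24 °C, CD2 and GLRX do not overlap between the breeds at 24 °C, and FUT2 lies either at or below 5.84 or at or above 8.85 in single pigs.

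The machinery of the gland itself showed no difference that passed an unadjusted p of 0.05. Of the 18 measured genes of thyroid hormone synthesis, 0 did so in either direction, and the median difference was -0.04. TG, the hormone precursor, changed by -0.09 within CR and 0.07 within LW, a difference of 0.16 (95% interval -0.04 to 0.36), and of 0.10 without LW_24 replicate 1. The value 18.85 of this probe recurs in CR_30 replicate 6 and LW_24 replicates 5 and 6, because quantile normalization gives arrays the same values by rank. Its size and interval are thus limited by that scaling. Of the 9 dimmer TG probes, 8 gave larger positive differences, from 0.22 to 0.46, and the dimmest gave -0.13, with an unadjusted p over 0.05 for each. The thyrotropin receptor TSHR had a difference of 0.04 (95% interval -0.37 to 0.44), the iodide transporter SLC5A5 -0.22 (95% interval -1.27 to 0.83) and the thyroid transcription factor PAX8 -0.23 (95% interval -0.63 to 0.16). The interval of SLC5A5 is wide because its level ran from 15.27 to 17.81 over the pigs. The sign changed for TSHR and SLC5A5 when single pigs were left out, and for SLC5A5 also with slide or array position as a fixed block. The deiodinase DIO1 was not analysed here.

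Heat shock chaperones, which refold damaged proteins, had a median difference of -0.03 over 46 genes, with 2 positive and 0 negative at an unadjusted p under 0.05. The 2 were the collagen chaperone SERPINH1, with 0.39 (SE 0.16, unadjusted p 0.0180), and the co-chaperone DNAJB1, with 0.32 (SE 0.14, unadjusted p 0.0315), and all probes of both genes shared the sign. SERPINH1 fell by 0.49 within CR (limma adjusted p 0.0318), and its change within LW was -0.10. The cytosolic chaperone HSPA8 had a difference of 0.11 (95% interval -0.23 to 0.44), the chaperone HSPH1 -0.01 (95% interval -0.34 to 0.33) and the endoplasmic reticulum chaperone HSPA5 0.14 (95% interval -0.22 to 0.50), or 0.02 without CR_30 replicate 3. The signs of HSPA8 and HSPH1 changed when single pigs were left out.

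FOS, an immediate early transcription factor, changed in the same direction in both breeds, by -1.31 within CR and -1.93 within LW, and the difference was -0.61 (95% interval -2.18 to 0.95). It was -0.23 without LW_30 replicate 2 and -1.04 without LW_30 replicate 3, the range over pigs left out. Its heated LW pigs were spread from 9.26 to 13.33, against 12.47 to 13.81 at 24 °C. KDM1B, a histone demethylase, changed by 0.35 within CR and 0.41 within LW, a difference of 0.06 (95% interval -0.21 to 0.33), and all heated pigs of both breeds were above the mean of their breed at 24 °C. The other 2 probes of KDM1B changed less, by 0.09 and 0.17 within CR and by -0.02 and 0.13 within LW, and gave a negative difference. Over pigs left out the difference of the brightest probe ran from 0.0034, without CR_24 replicate 1, to 0.12, without LW_30 replicate 6.

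Single genes of other lists had an unadjusted p under 0.05 while their list held no other such gene. BAX, a promoter of cell death and a p53 target, had a difference of 0.50 (SE 0.22) with changes of -0.15 within CR and 0.36 within LW. The receptor NOTCH3 of mural cells had 0.32, the muscle calcium buffer CASQ1 0.40, the epithelial keratin KRT7 -0.77, the nuclear receptor NR4A3 -0.57, the glutathione synthesis enzyme GCLC -0.34 and the respiratory chain subunit NDUFS6 -0.28. For NDUFS6, 1 of 2 probes shared the sign. CASQ1 moved with 1 pig, CR_24 replicate 4, which had the highest mean of the skeletal muscle markers, 8.89 against 8.33 or lower in the other CR pigs at 24 °C, and without it the difference was 0.24. With that pig included, the difference was positive for 20 of the 22 skeletal muscle markers, with a median of 0.09.

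**Figure D5:**
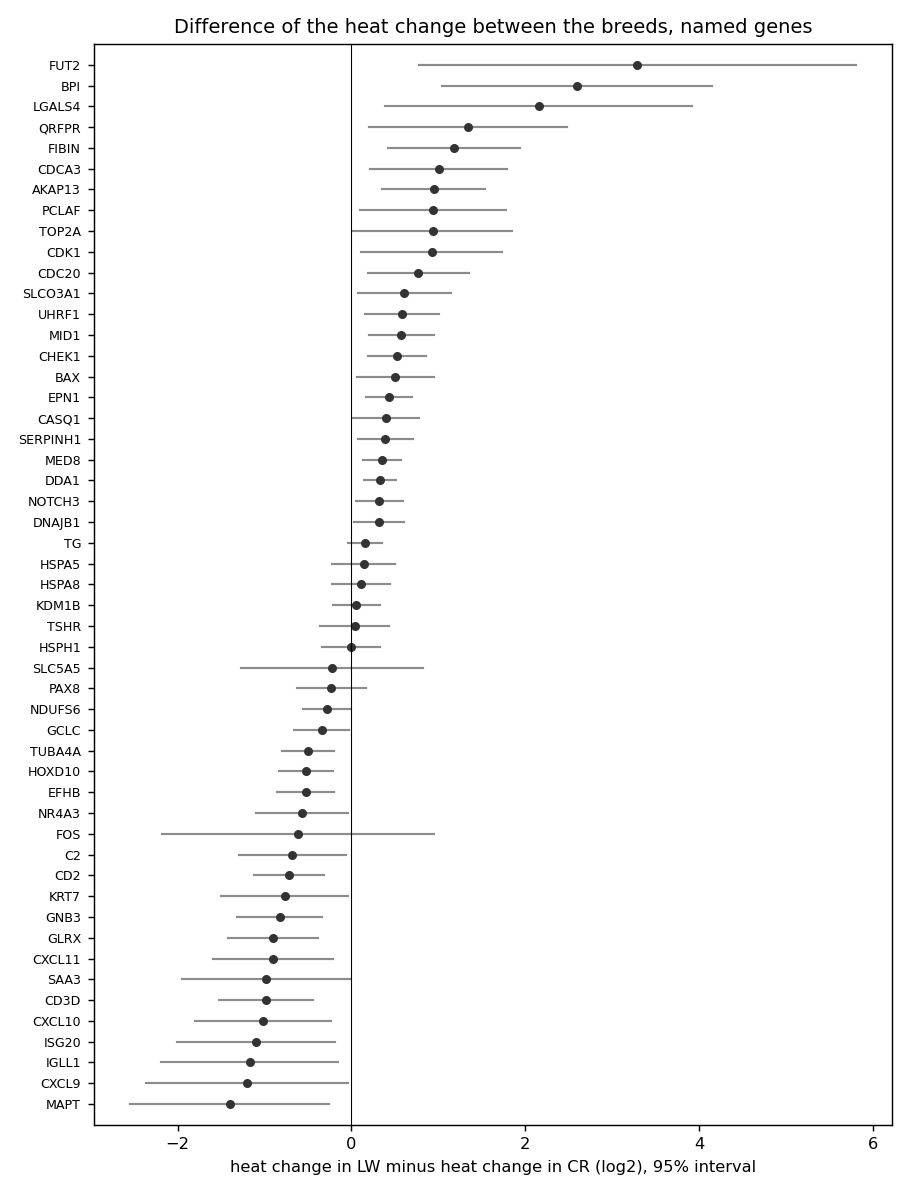
Difference of the heat change, LW minus CR, on the log2 scale, for the named genes that are reported here (points) with the 95% interval of the limma fit (lines), ordered by size. Intervals of the genes at both ends exclude 0 without adjustment because the genes were chosen for a small unadjusted p, those of TG, TSHR, SLC5A5, PAX8, HSPA8, HSPH1, HSPA5, FOS and KDM1B include 0, and FUT2, BPI and LGALS4 have the largest positive values.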

How the data were processed

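Thyroid RNA of 24 CR and LW pigs, with 12 F1 pigs in the same model, was read from the deposited table. Per the file headers the scanner files hold spot and background intensity from Agilent Feature Extraction 10.10.1.1, with no scaling across arrays. The authors used median pixel values, quantile normalization and a filter for expressed probes, and deposited log2 values. This scaling equalizes the distribution of all arrays, so a change shared by most probes cannot be seen. A remake from the scanner files with no background subtraction differed from the deposited log2 values by a median of 0.0056.

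Group means of the 6 groups were fitted to the 46097 probes of all 36 arrays with limma 3.58.1 (lmFit, contrasts.fit, eBayes) in R 4.3.3, with no covariates. Tests were 2-sided, and Benjamini-Hochberg adjustment was over all 46097 probes. The fit was tested on simulated data. P-values measure the spread between pigs. Arrays have no read depth, and their number limits the precision. The 63 missing values were left out probe by probe, and 0 columns of the table lacked a sample.

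Gene names came from the scanner files, updated with RefSeq names of Sscrofa11.1, and 21839 probes had no name. Coordinates are those of the genes, since the files give none for probes. A gene is represented by the probe with the highest mean over the 24 arrays. Named are the called genes, the 8 smallest p and the 4 largest sizes (unadjusted p under 0.05) in each direction, up to 2 per list with an unadjusted p under 0.05, and 14 genes listed by name. A few genes that the rule names are not reported here. The members and lists were chosen with earlier results of these data known, and every further list member named in the text, and SLCO3A1, was chosen after its values were seen. Lists are described by counts and medians with no test. Alternatives covered the source of the values, background correction, scaling, a filter on dim probes, the arrays in the fit, slide and position as blocks, the spread estimate, array weights and each pig left out.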

Additional observations from a re-analysis of the deposited data

Results flagged for a closer look

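Dixon's test at the 95% level was applied to each of the 4 groups of 6 pigs for the named genes and for the mean of each list, and 20 of 360 groups (5.56%) had a pig far from the rest, where chance gives about 1 in 20. The genes were FUT2, with CR_24 replicate 3 at 5.56 and LW_24 replicate 5 at 5.84, LGALS4 with CR_24 replicate 3 at 9.32, HSPA5 and TSHR with CR_30 replicate 3 at 14.95 and 8.93, CASQ1 with CR_24 replicate 4 at 7.43, DNAJB1 with CR_30 replicate 6 at 13.52, HOXD10 with CR_30 replicate 5 at 6.97 and ISG20 with LW_30 replicate 4 at 7.87.

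Among the list means, CR_30 replicate 6 was high for extracellular matrix (12.10) and fibroblast and mural markers (12.09), and LW_24 replicate 2 was high for the same lists (11.92 and 12.04). CR_24 replicate 2 was high for thymic epithelium markers (7.63) and the unfolded protein response (13.04), CR_24 replicate 4 for skeletal muscle markers (8.89), LW_30 replicate 3 for chemokines and interleukins (8.61) and LW_24 replicate 1 for nuclear oxidative phosphorylation (13.33). CR_24 replicate 3 was low for B and plasma cell markers (7.15) and CR_30 replicate 5 for adipocyte markers (9.10).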

How the results depend on the processing

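No probe was called for the difference under any of the 12 settings or with any pig left out, and the count at an unadjusted p under 0.05 ran from 1259 to 2025 over the settings and from 1215 to 1725 over pigs left out, against 1447. Calls within CR ran from 165 to 189 over the settings and from 127 to 195 over pigs left out, against 173. Calls within LW were 0 except for 3 with only the CR and LW arrays in the fit, 2 with array weights, and 0 to 16 over pigs left out, with 16 without LW_24 replicate 1 and 15 without LW_30 replicate 3. Over pigs left out, the members with an unadjusted p under 0.05 ran from 6 to 22 for mitosis and G2/M, 1 to 7 for DNA replication, 3 to 8 for T cell markers, 2 to 17 for interferon-stimulated genes and 4 to 10 for chemokines and interleukins; these counts under the alternatives, and position as a fixed block, were added after seeing the data. With slide as a fixed block the interferon-stimulated count was 0, and with position as a fixed block it was 1 and the T cell count 3. Of the list medians, that of melanocyte markers moved from 0.030 to -0.031 when the 75th percentile replaced quantile normalization. The SD over pigs of that list's mean ran from 0.042 to 0.067 in the 4 groups. The median difference of the mitosis list ran from 0.25 to 0.42 and that of the interferon-stimulated list from -0.47 to -0.41 over the settings for lists. The sign of the difference reversed for SLC5A5 with slide (0.094) or position (0.13) as a fixed block, and for HSPH1 with slide as a fixed block (0.10), slide as a random block (0.028) or position as a fixed block (0.011). Over pigs left out the range was -0.043 to 0.13 for TSHR, -0.41 to 0.039 for SLC5A5, -0.0022 to 0.19 for HSPA8 and -0.10 to 0.066 for HSPH1. The other named genes kept their sign under these settings, and the cause of these changes was not tested. Position as a random block had a correlation of -0.00081 and slide one of 0.08. No paired analysis was possible because the labels carry no replicate numbers, and numbers given in accession order do not pair pigs.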

Other observations

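FUT2 and LGALS4 stood on the same side of their widest gaps in 12 of the 12 CR pigs, 7 above both and 5 below both. In the LW pigs they did so in 7 of 12, and the other 5 were high for FUT2 and low for LGALS4. The genes are both on chromosome 6, FUT2 from 54034666 to 54044891 and LGALS4 from 47616984 to 47625435 of Sscrofa11.1. The gaps were set after the values were seen, that of LGALS4 does not mark clear levels, the pigs include littermates, and no test was run.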
